A study of Mus musculus with 14 samples.

Results

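The response to doxycycline (Dox) of the leukaemias labelled evolving was measured by RNA sequencing of tumour cells from the spleen. The labels sort the T-cell acute lymphoblastic leukaemias of a mouse Lmo2 model by their Lmo2 status as dependent, evolving or independent. The libraries described here are all those labelled evolving, 6 of the 14 in the series: tumour VTL-153, tumour VTL-25 and tumour VTL-21. Each was sequenced once with Dox, given in food pellets at 600 mg/kg, and once without Dox. The same pair of states was sequenced for the 3 independent tumours VTL-44, VTL-33 and VTL-81, which enter the fit and serve as the comparison class. The 2 dependent tumours were sequenced without Dox and are not used here. All groups shared the same route: thymocytes were passed into irradiated C57BL/6-Ly5.1;FVB F1 mice, the leukaemias that arose were frozen, and thawed cells were injected into C57BL/6-Rag1-/- mice. RNA came from donor cells, sorted as positive for both CD45.1 and CD45.2. A tumour number names 1 transplanted leukaemia, and the labels tie no library to a single recipient mouse. The design text refers to Dox activation, but neither the direction in which Dox acts on Lmo2 nor the promoter is given in the labels. With and without Dox are used below only as labelled. Where 3 values are given for a state, or 3 differences for a gene, they belong to VTL-153 first, then VTL-25, then VTL-21.

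LMO2 is an adaptor protein that binds no DNA itself. It joins LDB1, GATA factors and basic helix-loop-helix factors such as TAL1 or LYL1 with their E protein partners into complexes on E-box and GATA motifs, and it is silenced when thymocytes commit to the T lineage. Enforced Lmo2 gives thymocytes self-renewal and precedes T-cell leukaemia. Id proteins are the natural inhibitors of E proteins, and cholesterol synthesis is governed by SREBP factors on sterol regulatory elements.

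The RefSeq promoter table (GRCm38.p6) shows these letters in 3 genes that the results return to, each given as the 250 bases before the start of transcription. Cpa3 (chr3:20242182-20242431, minus strand), a mast cell and progenitor carboxypeptidase, is shown as a gene almost lost with Dox whose window pairs the motifs of an LMO2 complex. Lyl1 (chr8:84701207-84701456, plus strand) is shown as a gene of that complex. Hmgcs1 (chr13:119690101-119690350, plus strand), an enzyme of cholesterol synthesis, is shown for its sterol element. Capitals mark CAGNTG (E-box) and GATAA in Cpa3 and Lyl1 and TCACNCCAC (sterol element) in Hmgcs1, each searched on both strands.
Cpa3: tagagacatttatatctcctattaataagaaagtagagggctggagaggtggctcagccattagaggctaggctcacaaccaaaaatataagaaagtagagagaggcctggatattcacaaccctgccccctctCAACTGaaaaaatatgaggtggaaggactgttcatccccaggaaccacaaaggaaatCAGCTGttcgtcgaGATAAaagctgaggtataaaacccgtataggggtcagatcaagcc
Lyl1: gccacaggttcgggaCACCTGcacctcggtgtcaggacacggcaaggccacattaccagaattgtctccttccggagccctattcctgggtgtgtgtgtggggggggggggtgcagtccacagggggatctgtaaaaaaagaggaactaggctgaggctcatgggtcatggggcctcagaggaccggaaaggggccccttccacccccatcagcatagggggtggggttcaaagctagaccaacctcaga
Hmgcs1: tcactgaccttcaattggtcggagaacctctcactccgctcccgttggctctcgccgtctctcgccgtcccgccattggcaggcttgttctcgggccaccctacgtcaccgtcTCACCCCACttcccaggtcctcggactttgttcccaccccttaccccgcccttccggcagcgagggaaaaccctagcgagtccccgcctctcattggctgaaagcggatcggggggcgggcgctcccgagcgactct
In Cpa3 an E-box is followed by GATAA after 8 bases. Lyl1 had 1 E-box and no GATAA. Of other windows looked at and not shown, Hhex had neither motif, and Ctla4 and Scn2b, both higher with Dox, had 1 E-box each. An E-box followed by GATAA after 7 to 10 bases occurred in 0.183% of the 32851 windows of the table and in 0.123% of those of tested genes. Among genes called with Dox it occurred in Cpa3 and in no other matched gene. Single E-boxes were in 45.9% of windows of the genes higher with Dox and 45.4% of those lower with Dox, against 38.2% for all tested genes. GATAA was in 16.3% and 16.9% of these windows, against 15.1% for all tested genes. Entries were found for 93 of the 136 higher and 100 of the 127 lower genes. A match to letters is a description of the window only.

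The 6 evolving libraries held 19219722 to 24048281 counts, and mitochondrial genes took 1.90% to 3.07% of them. Some features of these libraries bear on every comparison. Among these, VTL-153 and VTL-25 without Dox correlated at r = 0.973 over 12360 genes, against 0.919 and 0.933 for each of them with VTL-21, so that this pair was the most alike before any comparison. In addition, the rearranged T cell receptor beta genes did not match within VTL-25. VTL-25 with Dox had 5440 counts of Trbv5 and 0 of Trbv24 or Trbv13-1, while VTL-25 without Dox had 93 counts of Trbv5, 5951 of Trbv24 and 1488 of Trbv13-1. VTL-153 carried Trbv24 and Trbv13-1 in both states, with 6822 and 2351 counts with Dox and 7327 and 2023 counts without Dox. The joining segment Trbj2-2 had 473 counts in VTL-153 with Dox, 246 in VTL-153 without Dox and 300 in VTL-25 without Dox, and 0 in VTL-25 with Dox and in both libraries of VTL-21. VTL-21 had Trbv24 as its first segment in both states, with 8576 counts with Dox and 5378 without Dox, and its 882 counts of Trbv13-1 without Dox stood against 3 with Dox. Trbv24 also led both libraries of the independent tumour VTL-33, so this segment alone does not mark a class. VTL-25 without Dox thus carried mainly the segments of VTL-153. Trbv5, which led VTL-25 with Dox, made up 1.23% of its Trbv counts, against 0.03% to 0.16% in the VTL-153 and VTL-21 libraries. Whether the VTL-25 libraries hold the same clone, and whether VTL-25 without Dox and VTL-153 come from the same leukaemia, was not tested. VTL-153 and VTL-25 may therefore not be independent, which bears on every statement over 3 tumours and on the likeness of this pair, and values without VTL-25 are given for the called genes and for most lists.

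Transcripts of other cell types differed between the states, and differently by tumour. Summed over 23 measured myeloid markers, levels were 53.9, 58.2 and 396 CPM (counts scaled to library size) with Dox, against 346, 377 and 57.9 CPM without Dox. VTL-21 was high with Dox and low without it, the reverse of the other two tumours. Over 9 B cell markers the sums were 216, 733 and 8175 CPM with Dox, against 372, 220 and 641 CPM without Dox, so that VTL-21 with Dox stood apart. Immunoglobulin M (Ighm) is among these 9, and the other markers of the list, beyond the 9, were not analysed here. Erythroid sums over 10 markers were 0.961, 11.2 and 192 CPM with Dox, against 8.45, 16.4 and 11.3 CPM without Dox. Listed at 0 counts were Elane, Cebpa, Alas2, Slc4a1, Car1 and Rhag in VTL-153 with Dox, Cd14 in VTL-25 with Dox, and Cd14 and Ighd in VTL-21 without Dox. No gene of the B cell, myeloid or erythroid lists was called. In bulk samples fewer cells of a type and less RNA per cell cannot be told apart. The cells were sorted as donor cells, and whether host cells remained was not tested. The T cell receptor complex genes Cd3e, Cd3d, Cd3g and Cd247, which mark the labelled T-cell leukaemia, were present in all 6 libraries.

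Lmo2 itself (ENSMUSG00000032698, chromosome 2, 103957986 to 103981878 on mm10) had 0.405, 0.198 and 3.24 CPM with Dox, against 708, 515 and 303 CPM without Dox. Every library with Dox was far below every library without Dox. The log2 change was −8.98 (SE 1.95, n = 3 tumours), and its adjusted p of 0.0782 missed the threshold of 0.05. Without VTL-25 it was −8.18 (adjusted p = 0.246). Lmo2 is therefore no called gene below, although its direction was the same in the 3 tumours.

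Counts were tested with edgeR's quasi-likelihood test with tumour as a block, and a gene is called where its Benjamini-Hochberg adjusted p over all 12360 tested genes is below 0.05. Of these, 263 were called (2.13%): 136 were higher with Dox (1.1%) and 127 lower (1.03%). At least a 2-fold change was seen in 245 of the 263, and 254 are protein coding. In 234 the 3 libraries with Dox did not overlap the 3 without Dox, against 2351 of all tested genes (19.0%, with 8.77% higher and 10.3% lower). Most called genes thus did not overlap, and where this is given below it adds little to the call. The same direction was found in all 3 tumours for 262, and the exception, Igf2bp3, named after its values were seen, had log2 differences of 7.38, 5.83 and −0.56. Without VTL-25 the count was 49 (24 higher and 25 lower, 0.395% of genes), of which 39 were among the 263, and all 263 kept their direction. The count was 73 without the tumour block and 21 in a fit of the 6 evolving libraries alone, all 21 among the 263. Limma voom with a separate weight for each class called 256, sharing 203. In 30 genes the call held with each of the 6 tumours of the fit left out in turn. These included Sdc1, Icos, Ctla4, Cd28, Irs2, Cpa3, Mdga1, Nfix and Il9r.

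The 12 genes each way with the smallest p lead the response, and their levels per library are plotted with 1 colour for each tumour. Sdc1 (ENSMUSG00000020592, chromosome 12, 8771323 to 8793715), the heparan sulphate proteoglycan syndecan-1 of plasma cells and epithelia, had 189, 223 and 86.0 CPM with Dox, against 9.35, 5.65 and 1.39 CPM without Dox. The groups did not overlap (log2 change 5.14, SE 0.34, adjusted p = 0.00856, n = 3 tumours). Foxb1, a forkhead transcription factor of the developing brain, had 22.1, 39.9 and 10.4 CPM with Dox, against 1.05, 0.961 and 0.629 CPM without Dox. All 3 libraries with Dox were above all 3 without Dox (log2 change 4.61, SE 0.35, adjusted p = 0.00856). Its antisense neighbour B230323A14Rik overlaps it by 2201 bases and was also called higher. Rere, a nuclear receptor corepressor, and Pou6f1, a POU domain factor, moved less but evenly, with log2 differences of 1.68, 2.08 and 1.98 for Rere and 2.04, 2.34 and 1.96 for Pou6f1. Camk2d, a calcium and calmodulin dependent kinase, and Arhgef10l, a guanine nucleotide exchange factor, were as even, with log2 differences of 2.03, 2.22 and 1.97 for Camk2d and 2.05, 2.37 and 2.00 for Arhgef10l. Clstn1, a calsyntenin of vesicle transport, had 142, 61.7 and 1.87 CPM with Dox, against 8.30, 5.69 and 0.0899 CPM without Dox. Its level in VTL-21 with Dox was below the levels of the other two tumours without Dox, so the groups overlapped while each tumour was higher with Dox. Acsf2, an acyl-CoA synthetase, overlapped in the same manner, with 50.2, 76.6 and 2.01 CPM with Dox, against 4.35, 3.28 and 0.225 CPM without Dox (log2 change 3.84, SE 0.34). Rtn4rl1, a Nogo receptor relative, had 19.7, 36.2 and 11.6 CPM with Dox, against 0.700, 0.921 and 0.584 CPM without Dox and did not overlap (log2 change 4.81, SE 0.43). Abi2, the last of the 12, is described with its neighbours below. Without VTL-25, all 12 of these higher genes were still called, with log2 changes of 1.84 for Rere up to 5.39 for Ctla4.

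**Figure D1:**
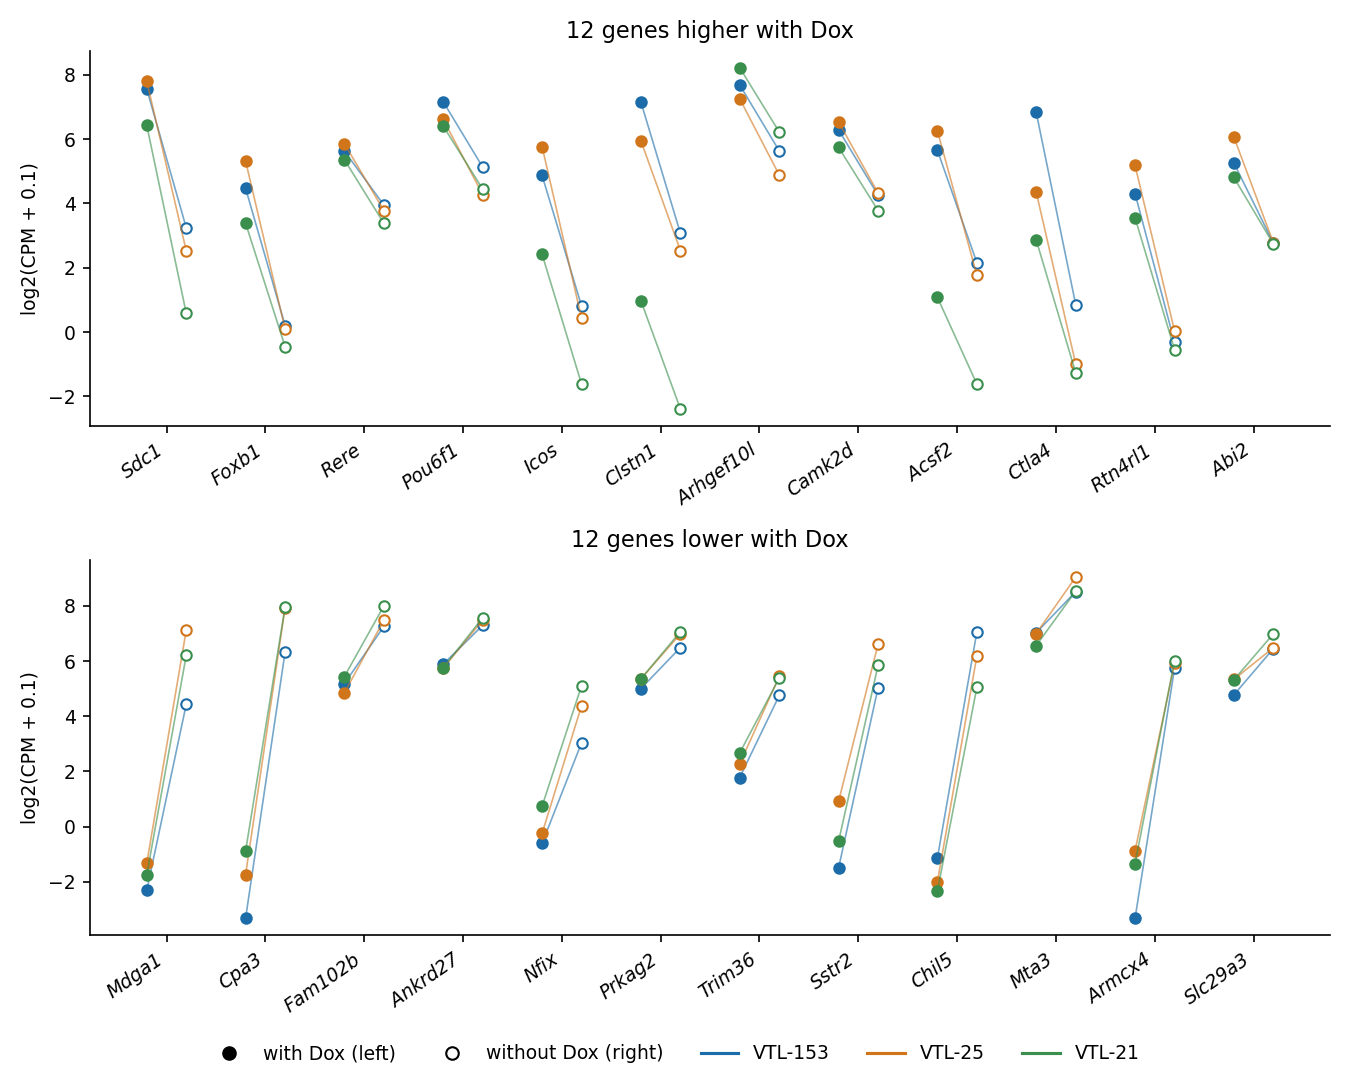
Levels of the 24 leading genes in each evolving library, as log2(CPM + 0.1), with Dox (filled, left) and without Dox (open, right), joined by tumour. Every line of the upper panel falls to the right and every line of the lower panel rises, as the choice of these genes required. Cpa3 and Armcx4 reach 0 counts in VTL-153 with Dox.

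Among the leading lower genes, Mdga1 (ENSMUSG00000043557, chromosome 17, 29827949 to 29970087), a membrane-anchored immunoglobulin protein of neuronal synapses, had 0.101, 0.297 and 0.196 CPM with Dox, against 21.6, 140.2 and 74.4 CPM without Dox. Every library with Dox was far below every one without Dox (log2 change −8.47, SE 0.31, adjusted p = 0.000325). Gm16758, transcribed antisense to Mdga1 over 6984 bases, had a log2 change of −10.12 and was not called. Cpa3, whose promoter letters are given above, had 0, 0.198 and 0.442 CPM with Dox, against 80.4, 246 and 250.3 CPM without Dox, again with no overlap (log2 change −9.87, SE 0.66). Fam102b, of which the function is little known, had 36.4, 28.8 and 43.4 CPM with Dox, against 153.5, 179.5 and 257 CPM without Dox, an even fall in the 3 tumours (log2 change −2.43, SE 0.19, adjusted p = 0.00856). Ankrd27, an exchange factor for the endosomal GTPase Rab21, Prkag2, a regulatory subunit of AMP-activated kinase, and Slc29a3, a lysosomal nucleoside transporter, fell by smaller amounts, at −1.66 (SE 0.15) for Ankrd27, −1.62 (SE 0.15) for Prkag2 and −1.50 (SE 0.15) for Slc29a3 on the log2 scale. Mta3, a subunit of the NuRD remodelling complex, had 131, 128 and 94.7 CPM with Dox, against 367, 530.2 and 373 CPM without Dox. All libraries without Dox were above all with Dox (log2 change −1.84, SE 0.19). Sstr2, a somatostatin receptor, had 0.253, 1.78 and 0.589 CPM with Dox, against 32.8, 98.0 and 57.7 CPM without Dox (log2 change −6.39, SE 0.63), and Trim36, a ubiquitin ligase, had 3.34, 4.76 and 6.29 CPM with Dox, against 26.9, 43.5 and 41.8 CPM without Dox (log2 change −2.98, SE 0.28). Chil5, a chitinase-like protein with close paralogs between which counting may split reads, fell by 8.60 (SE 0.82). Armcx4, an X-linked armadillo repeat gene, had 0, 0.446 and 0.295 CPM with Dox, against 53.7, 60.5 and 64.9 CPM without Dox, and Armcx1 beside it was called lower as well. Without VTL-25, Mdga1, Cpa3, Fam102b, Ankrd27, Nfix, Prkag2, Armcx4 and Slc29a3 were still called, whereas Trim36, Sstr2, Chil5 and Mta3 had adjusted p of 0.0501, 0.0501, 0.052 and 0.0584 with the same direction.

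Agreement between tumours over all genes was moderate and differed by pair. A log2 difference, with minus without Dox, was taken in each tumour for each of the 12360 genes. VTL-153 and VTL-25 correlated at r = 0.524 across genes, VTL-153 and VTL-21 at 0.261, and VTL-25 and VTL-21 at 0.256, as a description over genes that share libraries. The same sign was found in 58.2% of genes for VTL-153 and VTL-25, 53.5% for VTL-153 and VTL-21 and 57.8% for VTL-25 and VTL-21. Of the genes that differed at least 2-fold in both tumours of a pair, 82.6% of 1666 had the same sign in VTL-153 and VTL-25, 62.0% of 1427 in VTL-153 and VTL-21, and 66.2% of 1550 in VTL-25 and VTL-21. VTL-21 was thus the tumour least like the other two, while VTL-153 and VTL-25 share the receptor segments without Dox described above, whose part in their likeness was not tested. The libraries themselves were less alike with Dox (r = 0.904, 0.891 and 0.874 for these pairs) than without Dox (0.973, 0.919 and 0.933). Over all tested genes 17.3% were higher in all 3 tumours and 17.6% lower in all 3.

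**Figure D2:**
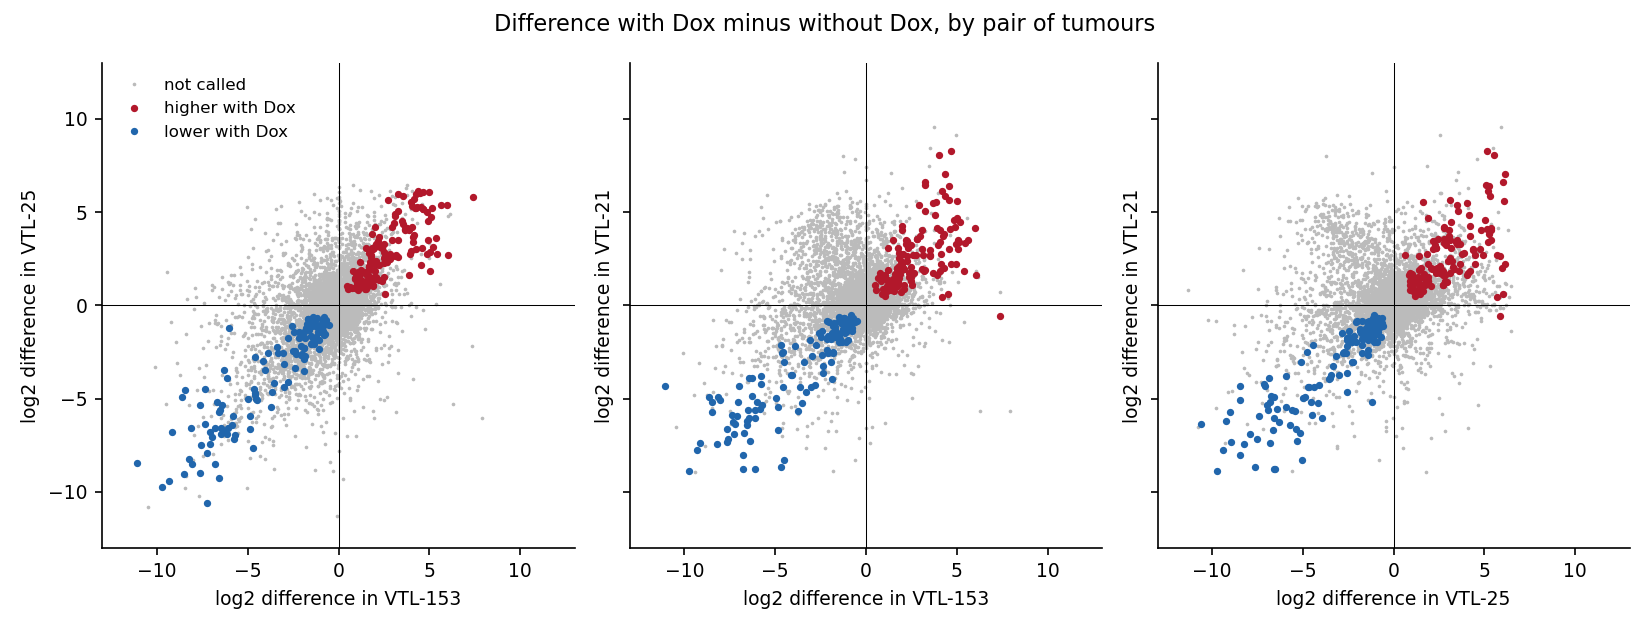
Log2 difference with Dox minus without Dox for each of the 12360 tested genes, 1 tumour on each axis, for the 3 pairs of tumours. Called genes are in colour (136 higher and 127 lower). The pair VTL-153 and VTL-25 (r = 0.524) is the closest, against 0.261 and 0.256 for the pairs with VTL-21.

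Many large differences went opposite ways. At least a 4-fold difference in each tumour was seen for 75 genes that were higher in all 3, for 164 that were lower in all 3, and for 180 that did not go one way. In 149 of these 180 the odd tumour was VTL-21, in 16 VTL-153 and in 15 VTL-25. Of the 6 most highly expressed such genes, Mpeg1 and Cd74 mark macrophages and antigen-presenting cells. Mpeg1, the macrophage perforin, had 2.63, 1.44 and 80.9 CPM with Dox, against 47.0, 23.1 and 2.97 CPM without Dox. Cd74, the MHC class II invariant chain and 1 of the 9 B cell markers, had 7.74, 4.11 and 120.1 CPM with Dox, against 89.7, 29.0 and 15.8 CPM without Dox, and so was high with Dox in VTL-21 as were the myeloid and B cell marker sums, whose part in these differences was not tested. Ptpn13, a tyrosine phosphatase, had 114, 244 and 4.22 CPM with Dox, against 20.5, 25.959 and 54.1 CPM without Dox, and Gria3, a glutamate receptor subunit, had 67.4, 79.0 and 0.442 CPM with Dox, against 11.6, 13.9 and 16.8 CPM without Dox. Both were higher with Dox in VTL-153 and VTL-25 and lower in VTL-21. Ly6d, a surface marker of lymphoid progenitors, had 1047, 1.09 and 82.7 CPM with Dox, against 116, 62.5 and 18.9 CPM without Dox, and was lower with Dox in VTL-25 only of the 3. Ccnd1, a D cyclin that T cells use little, had 0.405, 82.7 and 12.4 CPM with Dox, against 4.90, 3.77 and 63.6 CPM without Dox, and was higher with Dox in VTL-25 only of the 3.

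Differences of at least 8-fold in 1 tumour with under 0.5 on the log2 scale in both others were rarer, with 14 genes in VTL-153, 28 in VTL-25 and 12 in VTL-21. All 14 in VTL-153 were lower with Dox, whereas 12 of the 28 in VTL-25 and 9 of the 12 in VTL-21 were higher. In VTL-153 the best expressed were Tspan31, Cxadr, Dusp16 and Axl. Dusp16, a phosphatase of JNK and p38 kinases, had 0.657, 12.2 and 14.6 CPM with Dox, against 11.6, 15.9 and 13.6 CPM without Dox, and Axl, a receptor tyrosine kinase, had 0.354, 7.58 and 24.6 CPM with Dox, against 7.15, 8.65 and 34.6 CPM without Dox. Tspan31, a tetraspanin whose gene overlaps Cdk4 by 641 bases, had a log2 difference of −4.07 in VTL-153, and Cxadr, an adhesion receptor, one of −3.43. In VTL-25 Smarca2, the ATPase of SWI/SNF remodelling complexes, had 23.1, 152 and 5.01 CPM with Dox, against 18.2, 5.61 and 5.39 CPM without Dox. Pkig, an inhibitor of protein kinase A, Ripk2, a kinase of the NOD pathway, and Camk2b, another calmodulin kinase, were low with Dox in that tumour, with log2 differences of −4.53, −3.60 and −3.05 in this order. In VTL-21 the immediate early factor Jun had 20.1, 35.6 and 51.3 CPM with Dox, against 16.2, 47.8 and 492 CPM without Dox, high in 1 library without Dox. Fam167a had 27.6, 10.2 and 0.295 CPM with Dox, against 22.1, 13.8 and 35.3 CPM without Dox, and was nearly absent from VTL-21 with Dox. Itgam, the integrin chain of myeloid cells, and Il4ra, the interleukin-4 receptor, were higher with Dox in VTL-21 alone, by 3.42 and 4.58.

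Gene lists describe broader programmes. They were chosen with earlier results of these data known, so their counts of called members are descriptions and no test. Each of 51 lists is described by its called members and by the median of its log2 changes. Over all 12360 genes, 136 were called higher (1.1%) and 127 lower (1.03%). The median over all genes was 0.00, and 0.01 without VTL-25. The lists' medians per tumour are plotted from highest to lowest. At the low end stood both progenitor lists (−1.65 and −1.44), the myeloid (−1.31), B cell (−1.10) and stromal (−0.77) marker lists and cholesterol synthesis (−0.75), and the progenitor surface, myeloid, B cell and stromal lists had medians above 0 in VTL-21. Costimulatory receptors were near the high end, with the cytotoxic list (1.09, 7 genes) above them and the erythroid marker list (0.73) below them. Several of these medians depended on VTL-25 or on the tool. Without VTL-25 they were −0.07 for progenitor surface genes and 0.80, −0.16, −0.98 and 1.58 for myeloid, B cell, stromal and erythroid markers. With limma voom the myeloid and stromal medians were above 0, at 0.33 and 0.51, and the progenitor medians were −0.74 and −0.54.

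**Figure D3:**
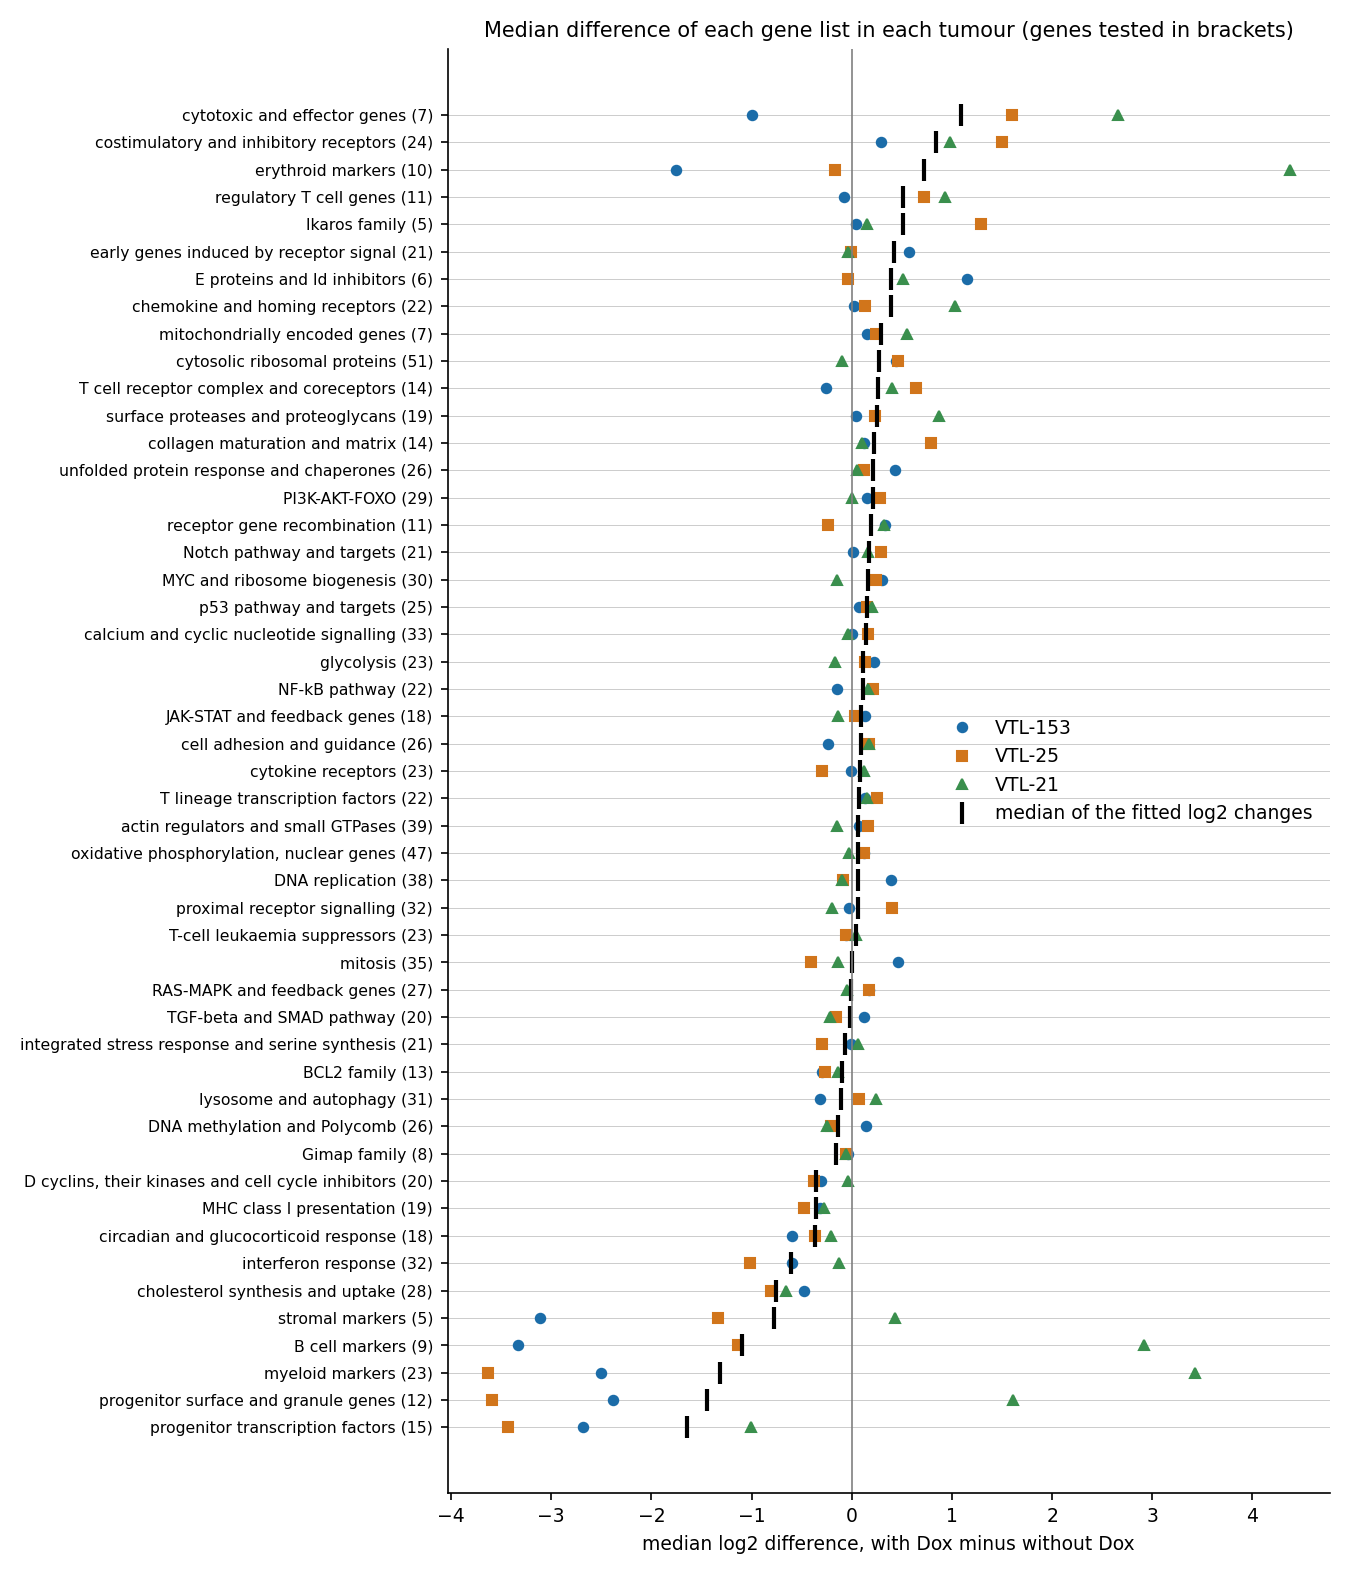
Median log2 difference, with Dox minus without Dox, of each list with at least 5 tested genes, in VTL-153 (circles), VTL-25 (squares) and VTL-21 (triangles), with the median of the fitted changes as a bar. The medians of the myeloid, B cell and erythroid marker lists in VTL-21 lie at 2.92 to 4.37, on the other side of 0 from those in VTL-153 and VTL-25.

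Of the progenitor transcription factors, which hold blood and thymic progenitors in an immature state, several fell. Of 15 tested, 4 fell (Nfix, Hhex, Lyl1 and Erg) and none rose, against 1.03% called lower among all tested genes. In this list 8 were lower in all 3 tumours and none higher, against 17.6% lower and 17.3% higher among all tested genes. The median was −1.65. Hhex, a homeobox factor of blood and early T cell progenitors, had 0, 0.0991 and 1.08 CPM with Dox, against 24.8, 69.0 and 39.3 CPM without Dox (log2 change −7.52, SE 1.24). Lyl1, the helix-loop-helix partner in LMO2 complexes whose window is shown above, had 0.860, 0.644 and 5.45 CPM with Dox, against 52.0, 105 and 102 CPM without Dox (log2 change −5.72, SE 0.95). Nfix, a nuclear factor I member of stem and progenitor cells, had 0.556, 0.743 and 1.57 CPM with Dox, against 8.15, 20.9 and 34.6 CPM without Dox (log2 change −4.38, SE 0.38). Libraries with and without Dox did not overlap for any of these 3. Lyl1 and Nfix lie on opposite strands and overlap by 3259 bases, and since the strand setting of the counting was not stated, reads of the overlap cannot be told apart. Erg, an ETS factor of stem cells, had 3 counts in the libraries with Dox together and 2428 in those without Dox, a ratio without over with Dox of 726 (95% exact counting interval 248 to 3524, counting error only). Among other members of LMO2 complexes, Ldb1, the bridging factor, was near level with log2 differences of 0.23, 0.14 and −0.04. Kdm1a, a histone demethylase, had 0.30, 0.34 and −0.30. Of the E proteins, given below, Tcf3 and Tcf4 were lower with Dox in each tumour, Tcf4 strongly so in VTL-153 and VTL-25. Tcf12 went both ways, and none of these was called. Without VTL-25 the median was −0.91 and Nfix alone of the list was called, with log2 changes for Hhex and Lyl1 of −6.69 (adjusted p = 0.155) and −4.99 (adjusted p = 0.131).

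Surface and granule genes of progenitors were less alike between tumours. Of 12 tested, 2 fell, Cpa3 and Cd93, a C-type lectin of early progenitors, and none rose. Cd93 had 0.556, 0.0991 and 3.19 CPM with Dox, against 97.1, 299.9 and 273 CPM without Dox (log2 change −7.77, SE 1.41, adjusted p = 0.0498). The list's median differences were −2.39, −3.59 and 1.61, and members also made by myeloid cells, such as Csf1r, Flt3 and Cd33, were higher with Dox in VTL-21 and lower in the other two tumours. Kit, the stem cell factor receptor, was lower with Dox in each tumour but by log2 differences as unlike as −0.30, −8.88 and −4.61, and was not called. Kit, Cpa3 and Hdc are the 3 measured of 10 mast cell markers, whose sums were 11.9, 1.34 and 8.00 CPM with Dox, against 95.5, 319 and 340.3 CPM without Dox. The myeloid marker sums given above moved with Csf1r, Flt3 and Cd33 in the same tumours. In VTL-21 they rose with Dox while Cpa3, Cd93 and Kit fell. The part of myeloid cells in this list was not tested. Without VTL-25, Cpa3 was called and Cd93 was not (log2 change −6.82, adjusted p = 0.144).

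Of 6 E proteins and their inhibitors, Id2 and Id3 rose and none fell. Id2, which is needed for natural killer and memory T cells, had 56.4, 69.7 and 48.2 CPM with Dox, against 11.4, 7.81 and 5.66 CPM without Dox (log2 change 2.85, SE 0.39, adjusted p = 0.0212). Id3, which thymocytes induce on receptor signalling, had 72.2, 124 and 27.0 CPM with Dox, against 5.60, 7.25 and 7.91 CPM without Dox (log2 change 3.21, SE 0.53, adjusted p = 0.0388). No library overlapped for either gene. Id1, the remaining inhibitor, had log2 differences of 1.62, −1.82 and 1.25 and was not called. Tcf3, which encodes E2A, had log2 differences of −0.48, −0.44 and −0.42, Tcf12, which encodes HEB, had 0.68, 0.38 and −0.23, and Tcf4, which encodes E2-2, had −6.23, −6.96 and −0.85, none called by edgeR, while DESeq2 called 1 member of the list lower. Without VTL-25 the log2 changes were 2.70 (adjusted p = 0.095) for Id2 and 2.72 (adjusted p = 0.138) for Id3.

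Costimulatory and inhibitory receptors of T cells held 5 of the 136 higher genes. Of 24 tested, 5 rose (Icos, Ctla4, Cd28, Cd96 and Tnfrsf8) and none fell, against 1.1% called higher among all tested genes. In this list 12 were higher in all 3 tumours and 4 lower, against 17.3% higher and 17.6% lower among all tested genes. The median was 0.84. Icos, the inducible costimulator, had 29.1, 54.4 and 5.25 CPM with Dox, against 1.65, 1.24 and 0.225 CPM without Dox (log2 change 4.71, SE 0.38, adjusted p = 0.00892). Ctla4, the inhibitory receptor for the same ligands as CD28, had 114, 20.3 and 7.17 CPM with Dox, against 1.70, 0.401 and 0.315 CPM without Dox (log2 change 5.47, SE 0.49), with a wide spread among the libraries with Dox. Cd28 had 279, 351 and 125 CPM with Dox, against 65.8, 35.2 and 31.8 CPM without Dox (log2 change 2.45, SE 0.28). Cd96, a receptor for nectin-like ligands, had 139.6, 123 and 48.3 CPM with Dox, against 45.7, 39.8 and 22.5 CPM without Dox (log2 change 1.45, SE 0.18), and in all of these genes the lowest library with Dox was above the highest without Dox. Tnfrsf8, the receptor CD30, rose by 1.99 (SE 0.35). Pdcd1, the exhaustion receptor PD-1, was not called, with log2 differences of −0.41, −0.14 and −0.97, and Cd27 had −1.48, −0.67 and −0.66. Without VTL-25 Icos, Ctla4 and Cd28 were still called, the log2 change of Cd96 was 1.36 (adjusted p = 0.0737), and the list's median was 0.61.

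Genes around the T cell receptor gave a mixed picture. Of 14 receptor complex and coreceptor genes, Cd8b1 rose and none fell, with 349, 136 and 369.9 CPM with Dox, against 73.5, 30.4 and 33.9 CPM without Dox (log2 change 2.61, SE 0.41). The CD8 chain Cd8a was also higher in each tumour, with log2 differences of 1.06, 1.97 and 3.38, but was not called. Cd4 differed by 0.83, −1.98 and 3.80, so that VTL-25 went the other way. Of 32 proximal signalling genes 3 rose and 1 fell. Fyn, a Src family kinase, had 377, 354 and 306 CPM with Dox, against 133, 103 and 116 CPM without Dox, an even rise (log2 change 1.56, SE 0.16). Malt1, the paracaspase that links the receptor to NF-kB, rose by 1.33 (SE 0.20), and Txk, a Tec family kinase, rose by 2.72 (SE 0.46). Tespa1, a thymocyte protein needed for receptor signalling in development, had 68.7, 119.6 and 92.7 CPM with Dox, against 224, 199 and 206 CPM without Dox (log2 change −1.20, SE 0.22). Of 21 early genes of receptor signalling, Nr4a1, an orphan nuclear receptor, rose by 2.10 (SE 0.38), and Dusp2, a phosphatase of MAP kinases, had 43.8, 27.5 and 50.7 CPM with Dox, against 86.2, 72.9 and 184 CPM without Dox and fell (log2 change −1.41, SE 0.21). None of these genes was called without VTL-25, where Fyn had a log2 change of 1.46 (adjusted p = 0.052) and Nr4a1 of 2.46 (adjusted p = 0.0829).

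Calcium and cyclic nucleotide signalling had 4 of 33 tested genes called higher and none lower by edgeR, with a list median of 0.14. DESeq2 called 5 higher and 6 lower. Of the 33, 9 were higher in all 3 tumours and 8 lower in all 3, against 17.3% and 17.6% of all tested genes. Besides Camk2d, Camk4, the calmodulin kinase of T cells, had 541, 342 and 493 CPM with Dox, against 270.1, 155 and 279 CPM without Dox (log2 change 0.99, SE 0.13), and Orai2, a subunit of store-operated calcium channels, had 69.2, 46.3 and 47.4 CPM with Dox, against 47.9, 24.998 and 26.5 CPM without Dox (log2 change 0.75, SE 0.14). Pde2a, a phosphodiesterase of cyclic nucleotides whose gene overlaps Arap1 by 1701 bases, had 109, 11.8 and 6.73 CPM with Dox, against 3.65, 1.64 and 0.270 CPM without Dox (log2 change 4.08, SE 0.63). Libraries of Orai2 overlapped between the states, while each tumour was higher with Dox for all of these genes. Without VTL-25 only Camk2d of these 4 was called.

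In the PI3K, AKT and FOXO list 2 of 29 genes rose and none fell. Irs2, the adaptor of the insulin and interleukin-4 receptors, had 28.9, 15.0 and 23.1 CPM with Dox, against 1.75, 1.92 and 2.38 CPM without Dox (log2 change 3.42, SE 0.35). Foxo1, which directs the expression of lymphocyte homing receptors, had 127, 94.0 and 104 CPM with Dox, against 60.8, 52.0 and 32.987 CPM without Dox (log2 change 1.19, SE 0.21). Of 18 circadian and glucocorticoid genes, Sgk1, a kinase close to AKT, rose, with 169, 71.1 and 92.6 CPM with Dox, against 4.95, 2.52 and 11.4 CPM without Dox (log2 change 4.30, SE 0.58). Nr3c1, the glucocorticoid receptor through which steroids kill lymphoblasts, fell, with 250.2, 137 and 304 CPM with Dox, against 610.4, 493 and 725 CPM without Dox (log2 change −1.46, SE 0.19). Libraries of the 2 states did not overlap for any of these 4. Without VTL-25 Irs2 was called at 3.66 (adjusted p = 0.0487), and the other changes were 1.36 (adjusted p = 0.0885) for Foxo1, 4.04 (adjusted p = 0.095) for Sgk1 and −1.27 (adjusted p = 0.0824) for Nr3c1.

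Cytokine receptors gave 1 higher and 2 lower of 23. Il2rb, the shared beta chain of the interleukin-2 and interleukin-15 receptors, had 9.46, 131 and 13.4 CPM with Dox, against 0.900, 1.96 and 0.0449 CPM without Dox (log2 change 5.40, SE 0.75). Il9r, the interleukin-9 receptor, had 45.9, 105 and 94.2 CPM with Dox, against 314, 351 and 408 CPM without Dox (log2 change −2.21, SE 0.25), and Il12rb2, an interleukin-12 receptor chain, had 157, 90.4 and 88.1 CPM with Dox, against 266, 262 and 206 CPM without Dox (log2 change −1.18, SE 0.19). None of the 3 overlapped between the states. Il2ra, the interleukin-2 receptor alpha chain of immature thymocytes, was lower in each tumour by log2 differences of −2.70, −5.03 and −0.77 and was not called. Single members were called in further lymphocyte lists: Itga6, the laminin receptor chain, had 207, 109 and 174 CPM with Dox, against 48.6, 38.3 and 82.8 CPM without Dox (1 of 22 homing genes, log2 change 1.56, SE 0.21), and Gimap4, a GTPase of lymphocyte survival, had 30.4, 45.9 and 22.5 CPM with Dox, against 2.55, 2.12 and 2.83 CPM without Dox (1 of 8 Gimap genes, log2 change 3.66, SE 0.51). Both rose in each tumour. Without VTL-25 Il9r alone of these 5 was called.

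Surface proteases and proteoglycans had 3 of 19 higher and 1 lower. Besides Sdc1, Adam19, a membrane metalloprotease, had 186, 911 and 112 CPM with Dox, against 8.997, 12.9 and 0.764 CPM without Dox (log2 change 5.78, SE 0.65), and Timp2, an inhibitor of metalloproteases, had 109.5, 172 and 93.6 CPM with Dox, against 34.2, 24.5 and 29.7 CPM without Dox (log2 change 2.05, SE 0.25). Adamts9, a secreted protease, had 2 counts with Dox and 1864 without Dox over the 3 tumours, a ratio without over with Dox of 836 (95% exact counting interval 231 to 6911). Of 14 collagen maturation genes, P3h4 and Fkbp10, partners of collagen hydroxylation that lie side by side on chromosome 11, rose and none fell. P3h4 had 59.980, 55.1 and 70.0 CPM with Dox, against 2.30, 1.44 and 0.135 CPM without Dox and Fkbp10 had 7.08, 22.7 and 37.4 CPM with Dox, against 0.350, 0.401 and 0.0449 CPM without Dox. Fkbp10 overlaps Nt5c3b by 2504 bases. Col1a2, a collagen chain, had 16.1, 1.04 and 0.196 CPM with Dox, against 0.150, 0.0801 and 0 CPM without Dox, and was the 1 called of 5 measured stromal markers, whose summed levels were 28.6, 185 and 141 CPM with Dox, against 197, 235 and 278 CPM without Dox. Vim made up most of these sums without Dox. In cell adhesion and guidance 3 of 26 fell: Mdga1, Pcdh7, a protocadherin with 0, 0.248 and 0.0982 CPM with Dox, against 15.1, 27.5 and 14.7 CPM without Dox, and Efnb2, an ephrin with 0.405, 0.347 and 2.85 CPM with Dox, against 11.3, 14.9 and 23.8 CPM without Dox. Mical2, which oxidises actin, had 16.6, 4.76 and 0.344 CPM with Dox, against 0.450, 0.120 and 0 CPM without Dox and was the 1 called of 39 actin regulators. Its libraries overlapped between the states, while each tumour was higher with Dox. Without VTL-25 Sdc1, Timp2 and Mdga1 of these genes were called.

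Cholesterol synthesis and uptake genes were lower as a group by small steps. Of 28 tested, 2 fell, Dhcr7 among them, and none rose. However, 21 of the 28 were lower in all 3 tumours and 1, the efflux pump Abcg1, was higher in all 3, against 17.6% lower and 17.3% higher among all tested genes. Median differences were −0.48, −0.81 and −0.65, and the median of the fitted changes was −0.75. Dhcr7, the 7-dehydrocholesterol reductase, had 45.3, 57.2 and 50.9 CPM with Dox, against 73.8, 97.3 and 88.3 CPM without Dox (log2 change −0.76, SE 0.12, adjusted p = 0.0307). Its libraries did not overlap between the states, and the differences were alike in the 3 tumours. The following members were named after their values were seen and were not called. Hmgcs1, whose promoter window is shown above, had 58.7, 40.8 and 66.9 CPM with Dox, against 83.7, 223 and 173 CPM without Dox (log2 change −1.44, SE 0.34). VTL-25 had the most negative difference in 15 of the 28 genes, such as Cyp51 with −0.27, −2.82 and −1.27 and Sqle with 0.42, −2.36 and −1.10. Srebf2, the factor that drives these genes, differed by −0.12, −1.03 and −0.38. The sterol element TCACNCCAC was in the windows of Hmgcs1 alone among the 20 members with an entry, and in 1.05% of all windows of the table. Without VTL-25 no member was called, 23 of 28 were lower in both remaining tumours (27.5% of all tested genes were), and the median was −0.57.

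**Figure D4:**
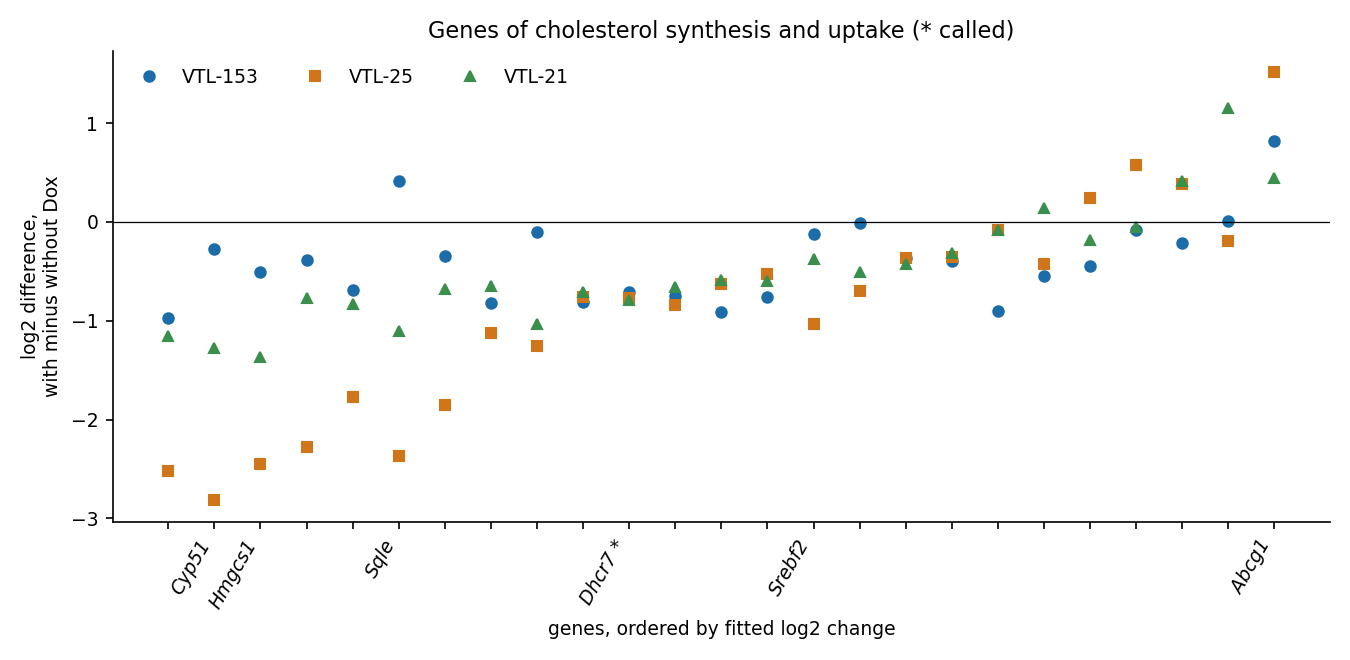
Log2 difference with Dox minus without Dox of 25 of the 28 tested genes of cholesterol synthesis and uptake in VTL-153 (circles), VTL-25 (squares) and VTL-21 (triangles), ordered by the fitted change, with the names of the genes given in the text. In 18 of these 25 genes all 3 symbols lie below 0, and an asterisk marks the called gene Dhcr7.

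Related metabolic lists had medians closer to 0. Glycolysis had 1 of 23 genes called, Hk1, the widely expressed hexokinase, with 136, 128 and 170.0 CPM with Dox, against 258, 339 and 418 CPM without Dox (log2 change −1.21, SE 0.14), and a median of 0.12. In the lysosome and autophagy list Npc1, which moves cholesterol out of lysosomes, had 37.7, 32.3 and 52.2 CPM with Dox, against 152, 195 and 174 CPM without Dox and was the 1 called of 31 (log2 change −2.11, SE 0.24). Nuclear genes of oxidative phosphorylation had a median of 0.06 over 47 genes, and genes of MYC and ribosome biogenesis one of 0.16 over 30, with none called in either. Cytosolic ribosomal protein genes had none of 51 called and medians of 0.44, 0.46 and −0.10 by tumour. Without VTL-25 the log2 changes were −1.10 (adjusted p = 0.0666) for Hk1 and −1.87 (adjusted p = 0.0501) for Npc1.

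Proliferation genes showed no common direction. None of 38 DNA replication genes or 35 mitosis genes was called, with medians of 0.06 and 0.01, which were 0.16 and 0.20 without VTL-25. In mitosis genes the medians by tumour were 0.46, −0.41 and −0.14, so that VTL-153 and VTL-25 lay on opposite sides of 0. Among 20 D cyclins, their kinases and inhibitors, Cdk6, the D cyclin kinase of lymphoid cells, had 231, 341 and 323 CPM with Dox, against 396, 1007 and 843 CPM without Dox and fell (log2 change −1.24, SE 0.22). Of 25 p53 pathway genes Phlda3, an inhibitor of AKT that p53 induces, fell, with 1.31, 0.793 and 2.21 CPM with Dox, against 11.8, 5.09 and 8.27 CPM without Dox (log2 change −2.57, SE 0.46). In that list 10 members were higher in all 3 tumours and 4 lower, against 17.3% higher and 17.6% lower among all tested genes. None of 13 BCL2 family genes was called. Rras2, a Ras-related GTPase, rose, with 55.8, 57.5 and 88.8 CPM with Dox, against 23.7, 17.0 and 41.5 CPM without Dox, the 1 called of 27 RAS and MAP kinase genes (log2 change 1.36, SE 0.16). Without VTL-25 Rras2 was called at 1.17 (adjusted p = 0.0487), and the log2 changes of Cdk6 and Phlda3 were −1.08 (adjusted p = 0.187) and −2.52 (adjusted p = 0.17).

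No gene of MHC class I presentation or of the interferon response was called by edgeR, while DESeq2 called 8 of 19 and 4 of 32 lower. Of the 19 MHC class I presentation genes, 10 were lower in all 3 tumours and 1 higher, beside 17.6% lower and 17.3% higher among all tested genes, with a median of −0.36. Of the 32 interferon response genes, 12 were lower in all 3 and 1 higher, with medians of −0.59, −1.02 and −0.13. In VTL-21 the interferon genes were thus close to level. Without VTL-25 the medians of the 2 lists were −0.35 and −0.36. The Notch pathway (21 genes, median 0.18), T lineage transcription factors (22 genes, 0.07), receptor gene recombination (11 genes, 0.19) and T-cell leukaemia suppressors (23 genes, 0.04) had no called gene either. Neither had the JAK-STAT, NF-kB, TGF-beta, Ikaros family, integrated stress response, unfolded protein response and DNA methylation lists, with medians of −0.13 to 0.51. These statements are for edgeR. DESeq2 called 5 T lineage factors higher and 1 lower, 2 recombination genes higher, 1 Notch gene higher and 1 leukaemia suppressor lower. It also called members of each list from JAK-STAT to DNA methylation except integrated stress response. Limma voom called 3 T lineage factors higher. Without VTL-25 the Notch and T lineage medians were 0.08 and 0.04.

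Annotated genes overlap in several cases, and where the strand is unknown their reads cannot be told apart: Prkag2 overlaps 1500035N22Rik by 12327 bases, Sstr2 overlaps Slc39a11 by 6687, Il12rb2 overlaps Serbp1 by 6419, Hk1 overlaps Hk1os by 23112 and Cxadr overlaps Btg3 by 27138.

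Some called genes were neighbours on their chromosome. With at most 1 uncalled tested gene between neighbours, 58 of the 263 formed 26 runs in one direction, 13 higher and 13 lower, and 23 of these were pairs. The longest run spanned 591 kb of chromosome 1 (60409619 to 61000320 on mm10), where Abi2, Raph1, Cd28, Ctla4 and Icos were all called higher. Abi2, an adaptor of the actin-regulating WAVE complex, had 38.2, 66.7 and 27.9 CPM with Dox, against 6.70, 6.73 and 6.56 CPM without Dox (log2 change 2.64, SE 0.26). Raph1, the actin regulator lamellipodin, had 36.5, 19.6 and 7.95 CPM with Dox, against 4.198, 3.08 and 2.02 CPM without Dox (log2 change 2.59, SE 0.33). Cd28, Ctla4 and Icos, the costimulatory family of this locus, are described above. The short predicted loci Eif4a-ps4 and Gm11579 between them were not called. Beyond Icos, Ino80d had log2 differences of 0.38, −0.23 and −0.03 and Ndufs1 of 0.25, 0.20 and 0.33, and before Abi2, Cyp20a1 had 0.06, 0.69 and 1.08, none called. Further upstream, Ica1l was higher in each tumour by 2.05, 2.59 and 1.54 and Nbeal1 by 1.20, 0.64 and 0.79, and neither was called.

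**Figure D5:**
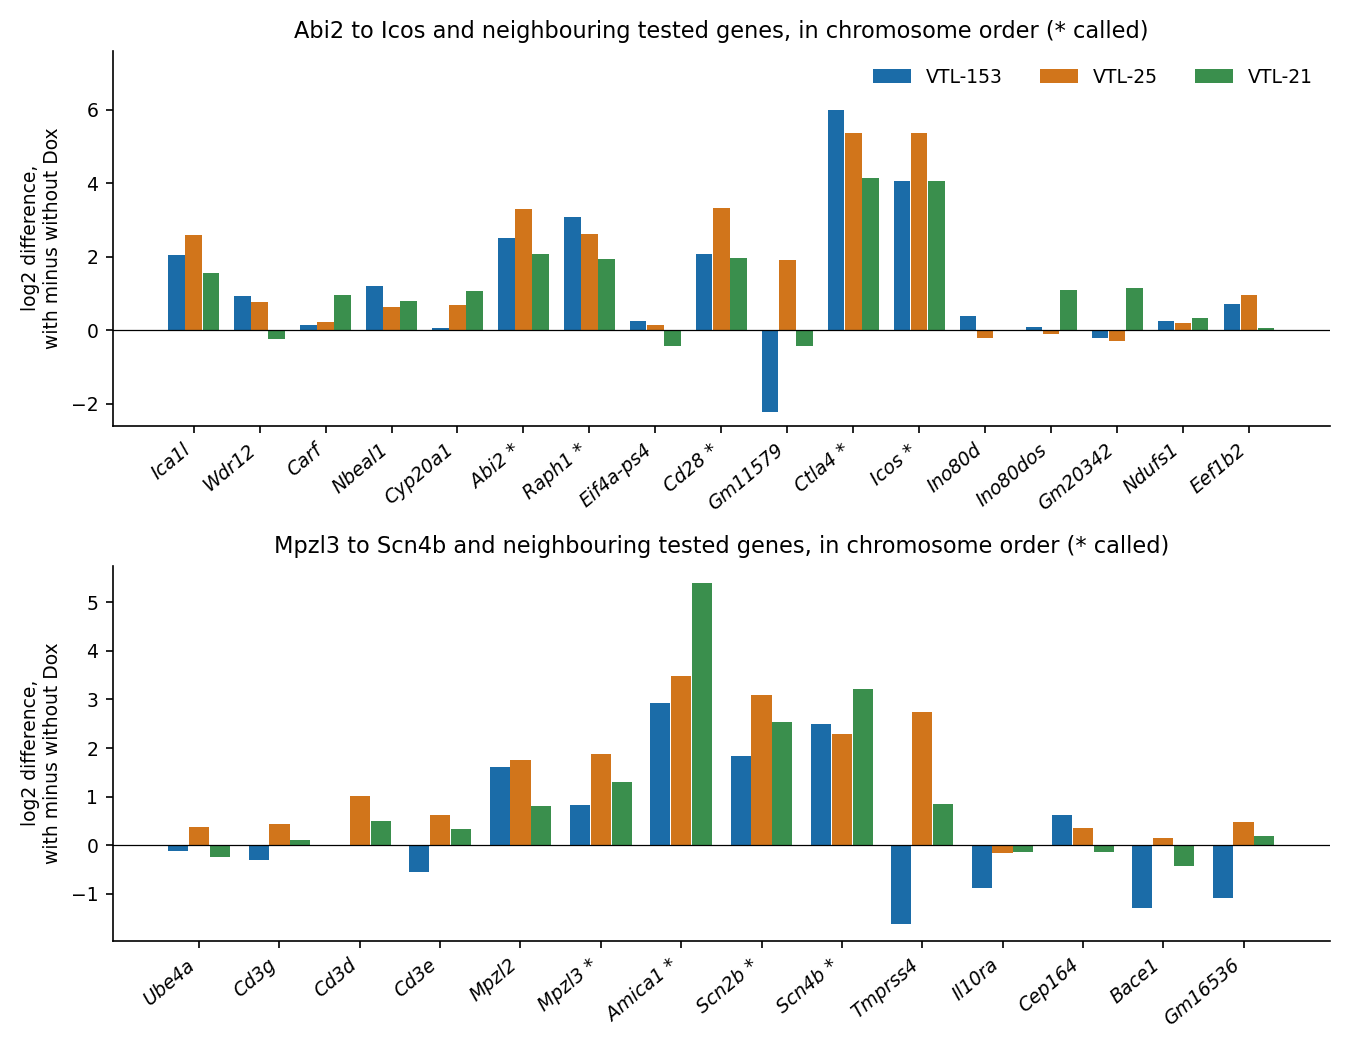
Log2 difference with Dox minus without Dox for tested genes in chromosome order around the runs Abi2 to Icos and Mpzl3 to Scn4b. Bars of called genes (asterisk) are above 0 in all 3 tumours, as are those of some uncalled genes, such as Nbeal1 and Mpzl2, while others, such as Ino80d and Cd3e, lie on both sides of 0.

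A second run of 4 genes covered 99.0 kb of chromosome 9 (45055186 to 45154152). Mpzl3, a myelin protein zero relative, had 21.3, 26.007 and 35.4 CPM with Dox, against 11.996, 7.05 and 14.3 CPM without Dox, and Amica1, a junctional adhesion molecule of leukocytes, had 50.5, 36.0 and 59.0 CPM with Dox, against 6.60, 3.12 and 1.30 CPM without Dox. Scn2b and Scn4b, beta subunits of sodium channels, had 59.3, 97.4 and 116 CPM with Dox, against 16.5, 11.4 and 19.999 CPM without Dox for Scn2b and 1.57, 3.91 and 22.0 CPM with Dox, against 0.200, 0.721 and 2.29 CPM without Dox for Scn4b. Libraries of Scn4b overlapped between the states. All 4 genes of the run were higher with Dox in each tumour, by 1.34 (SE 0.24), 3.92 (SE 0.52), 2.49 (SE 0.35) and 2.88 (SE 0.46) on the log2 scale in gene order. The T cell receptor genes Cd3g, Cd3d and Cd3e, which precede it, were not called, with log2 changes of 0.08, 0.51 and 0.14. Mpzl2, between Cd3e and Mpzl3, was higher in each tumour but missed the threshold (log2 change 1.39, adjusted p = 0.0559). The remaining run, Cacna1e, Ier5 and Stx6, covered 818 kb of chromosome 1 (154390731 to 155208256). Cacna1e, a calcium channel, had 345, 10.1 and 11.8 CPM with Dox, against 10.4, 1.28 and 0.944 CPM without Dox (log2 change 3.95, SE 0.49), Ier5, an immediate early gene, had 103, 47.3 and 70.9 CPM with Dox, against 18.3, 16.1 and 24.2 CPM without Dox (log2 change 1.86, SE 0.22), and Stx6, a syntaxin of the trans-Golgi, rose by 0.87 (SE 0.15). Libraries of Cacna1e overlapped between the states, while each tumour was higher with Dox. Pairs included Nfix and Lyl1, Gyg and Cpa3 and Gstm1 and Gstm4 among the lower genes, and Smyd1 and Cd8b1, Mboat2 and Id2 and P3h4 and Fkbp10 among the higher genes. Gstm1 and Gstm4 are near-identical paralogs that counting may split. Without VTL-25, Abi2, Cd28, Ctla4, Icos and Cacna1e were called, Raph1 had a log2 change of 2.56 (adjusted p = 0.0778), and none of the run on chromosome 9 was called.

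The Dox response of the evolving class was also set against that of the independent class in the same fit. In the independent tumours no gene was called for Dox by edgeR, DESeq2 or limma voom, and 87, 128 and 181 genes had an unadjusted p below 0.05 in these tools. The difference of responses, evolving minus independent, was called for 15 genes (0.121%): 9 were above 0 (0.0728%) and 6 below (0.0485%). All 15 were among the 263 called in the evolving tumours. Sdc1 had log2 changes of 5.14 in the evolving and 0.03 in the independent tumours (difference 5.11, SE 0.43, adjusted p = 0.0413). Mdga1 had −8.47 and −0.68 in the same order (difference −7.80, SE 0.49, adjusted p = 0.0135), and Nfix had −4.38 and 0.49 (difference −4.87, SE 0.50, adjusted p = 0.0445). No gene had a called difference in edgeR when VTL-25, VTL-44, VTL-33 or VTL-81 was left out, with 1045, 936, 829 and 980 genes at an unadjusted p below 0.05, against 1178 with all tumours. DESeq2 called 549 and limma voom 69 with all tumours. Of the 263 genes, 146 had the same sign of change in the independent class.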

How the data were processed

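Per the labels' protocols, libraries came from RNA of integrity above 8 (NEBNext Ultra II, NEB). Per the submitters' processing notes, STAR 2.5.2b, featureCounts and mm10 were used. The deposited values used are raw counts per gene from the authors, 12421 genes in 14 count columns, and 42 other columns of per-sample values were not used. The annotation and the strand setting are not given in the sources used here. The gene lists, named genes and comparison were chosen with earlier results of these data known. The test was that of edgeR 4.0.16 under R 4.3.3 (TMM, default filter with a minimum count of 10, robust quasi-likelihood) over 12 libraries of 6 tumours, with a tumour block plus separate Dox terms by class, and p adjusted by Benjamini-Hochberg over all genes. The fit shares 1 estimate of the spread between evolving and independent tumours. The SE was taken as the absolute log2 change over the root of the F statistic, and is inexact where a group holds few counts. CPM use TMM-scaled library sizes, and log2 differences per tumour use a prior count of 2. Replicates are separate tumour numbers, while the labels do not say whether they began in separate donor mice, so p-values measure the spread between these libraries.

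Libraries were paired because a number marks the same tumour in the labels. Deviations of partners from their group means correlated at 0.18 in VTL-153, 0.0084 in VTL-25, 0.13 in VTL-21, 0.64 in VTL-44, 0.71 in VTL-33 and 0.55 in VTL-81. Named were Lmo2, the 12 genes each way with the smallest p (mean log2 CPM of at least 2, same way in 3 tumours, without receptor segments, predicted genes and pseudogenes), up to 4 called genes per list, runs of at least 3 neighbouring called genes, and the best expressed genes that differed by at least 2 in each tumour in opposite ways or by at least 3 in only 1 tumour on the log2 scale. Positions are from GENCODE M21 on mm10 and promoter windows from RefSeq on GRCm38.p6, without the 50 bases after the start. Alternatives were RLE factors, DESeq2 1.42.0, limma 3.58.1 voom without and with class weights, testing all genes unfiltered, requiring a count of 50, dropping the robust option, removing receptor segments, no tumour block, the 6 evolving libraries alone, and each tumour left out. The tests were checked on simulated data. There, libraries of a tumour shared a mean and both classes had the same spread. The check therefore cannot show how the tests behave where pairing is weak or the spread differs. Counting intervals are exact at 95%. Some measured genes are not reported here.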

Additional observations from a re-analysis of the deposited data

Results flagged for a closer look

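For 14 named genes the Dox response differed between the evolving and the independent tumours in the test of the difference itself, on the log2 scale and evolving minus independent. With edgeR, 8 had a response that was higher in the evolving class. The difference was 5.51 for Ctla4 (adjusted p = 0.0486), 5.11 for Sdc1 (0.0413), 4.85 for Icos (0.0445), 4.72 for Foxb1 (0.0413), 3.68 for Clstn1 (0.0445), 2.88 for Arhgef10l (0.0413), 2.18 for Pou6f1 (0.0445) and 1.81 for Rere (0.0445). In 6 it was lower: −9.61 for Pcdh7 (0.0445), −9.35 for Cpa3 (0.0413), −7.80 for Mdga1 (0.0135), −4.87 for Nfix (0.0445), −3.43 for Trim36 (0.0445) and −2.32 for Fam102b (0.0445). Each of these 14 genes moved the same way in 3 of 3 evolving tumours. For all but Pcdh7 this was a condition of their choice as leading genes, so it adds no support. In the independent class the log2 changes of Pcdh7 and Arhgef10l were 2.08 and −0.74, opposite to the evolving class, and those of the other 12 lay between −0.68 and 0.49. A 15th gene, Smyd1, was called for the difference and was not among the named genes.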

How the results depend on the processing

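For Dox in the evolving tumours the 263 called genes became 1314 with DESeq2, 426 with limma voom, 73 without the tumour block (replicate block) and 21 in the 6 evolving libraries alone. With each tumour left out the count ran from 49 to 347: leaving out VTL-25 gave 49, VTL-153 gave 110, VTL-33 gave 128, VTL-44 gave 142, VTL-81 gave 162 and VTL-21 gave 347. It was 256 to 276 under the other alternatives. For the difference between classes, 15 genes became 549 with DESeq2, 69 with limma voom, 9 with class weights and 1 without the block, and 0 to 58 with each tumour left out: 0 without VTL-25, VTL-44, VTL-33 or VTL-81, 3 without VTL-153 and 58 without VTL-21. It was 14 to 16 under the others. The causes were not tested. No called named change turned its direction under any alternative run. Without VTL-25 the fitted change of 4 uncalled named genes turned: Ptpn13 to −0.52, against 1.35, Gria3 to −1.04, against 1.00, Mpeg1 to 0.35, against −2.28, and Ripk2 to 0.09, against −0.999. Of the 75 called named genes, 59 lost the call in the 6 libraries alone, 14 kept it and 2 were not tested there, 49 lost it without VTL-25 and 47 lost it without the block. Lmo2 passed with DESeq2 and without VTL-33. With 3 tumours a side, changes under 2-fold were called for 18 genes.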
